A study of Mus musculus with 8 samples.

Results

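The genes described here are 2 Notch receptors, Notch1 and Notch3, and 8 genes reported as direct targets of Notch signalling, Hes1, Hes5, Hey1, Heyl, Dtx1, Nrarp, Ptcra and Fjx1. All 10 were measured, among 18193 genes, by 19 probe sets that the platform annotation gives that symbol alone, and each gene was represented by its brightest probe set on average. They were read in T29, a cell line from a mouse thymic lymphoma described as Ikaros-deficient. Ikaros is a zinc finger transcription factor of lymphocytes. The line carried MigR1-Ik1ER, a retroviral vector with an Ikaros protein that the series text calls inducible, or the MigR1 vector without it. Each was given 100 nM 4-hydroxytamoxifen (4OHT), the ligand used for fusions to a mutated estrogen receptor, or its solvent ethanol, for 24 h. The 4 groups were therefore Ik1ER cells in 4OHT, Ik1ER cells in ethanol, MigR1 cells in 4OHT and MigR1 cells in ethanol, with 2 arrays each. The labels do not say whether the transduced cells were clones or pools, nor whether replicates were grown separately. The p-values therefore rest on array-to-array spread that could be technical alone, and the number of arrays limits the precision.

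Notch receptors are cleaved when a ligand on a neighbouring cell binds them, and the freed intracellular part enters the nucleus, joins the DNA-binding protein RBPJ and the coactivator Mastermind, and switches on target genes. In the thymus Notch1 commits progenitors to the T lineage and drives the step at which the pre-T cell receptor is assembled, and many T cell leukaemias of mouse and human carry activated Notch1. RBPJ prefers the letters TGGGAA, and Ikaros binds a core of GGGAA, which lies within them.

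The construct was read first. On the dimmer of the 2 Ikzf1 probe sets in MigR1 cells, Ik1ER cells read 11.27 and 10.45 in 4OHT and 11.17 and 10.60 in ethanol, against 8.16 and 8.51 in 4OHT and 8.12 and 8.14 in ethanol in MigR1 cells (log2, replicates 1 and 2). The 4 Ik1ER arrays lay above the 4 MigR1 arrays, by 2.64 on the log2 scale (two-sided exact permutation test, p = 0.0286, below which a comparison of 4 with 4 arrays cannot go; 5 probe sets of Ikzf1 and Esr1 were tested without adjustment). The other Ikzf1 probe set differed by -0.074 (exact permutation test, p = 0.514). One of the 3 Esr1 probe sets also read higher in Ik1ER cells, by 0.88 (exact permutation test, p = 0.0286). Both Ikzf1 probe sets were above the brightest of 27 Bacillus control probe sets (mean 5.27, used here as a gauge of background) in MigR1 cells. The replicate 2 arrays of Ik1ER cells stood apart in their controls. The 3' minus 5' signal of the transferrin receptor controls, a gauge of RNA integrity, was 1.91 in 4OHT and 1.66 in ethanol on them, against 1.16 to 1.39 on the other 6 arrays. On Ik1ER 4OHT replicate 2 the mean of the spiked hybridization controls was 8.86, where the other 7 arrays gave 9.41 to 9.54, and the 18S control read 10.07 on Ik1ER ethanol replicate 2, against 8.54 to 9.18 on the others. Of the T cell markers 6 of 7 measured read above the brightest Bacillus control, Cd3d, Cd3g, Thy1, Cd3e, Cd28 and Cd2, while Cd5 had a mean of 4.89. Above it were also Pax5 and Blnk of 5 B cell markers, Lyz2, Csf1r and Cd14 of 6 myeloid, Klf1 of 2 erythroid and Pdgfrb of 6 stromal and epithelial markers. RMA lists no gene at 0. Summed over a list, the myeloid markers read 30.8 to 31.1 in Ik1ER cells in 4OHT against 32.1 to 32.6 in ethanol, the stromal and epithelial ones 29.8 to 30.3 against 31.3 to 31.5, the B cell ones 25.0 to 25.1 against 24.2 to 24.8, the erythroid ones 9.89 to 9.92 against 10.02 to 10.05 and the T cell ones 69.5 to 69.7 against 69.5 (log2 values). These sums mix genes that read in opposite directions. Cd14 read 5.60 and 5.70 in Ik1ER cells in 4OHT, against 6.95 and 6.88 in ethanol, while Itgam, another myeloid marker, read 5.01 and 4.81 in 4OHT, against 4.33 and 4.43 in ethanol. Pdgfrb, which makes up most of the stromal difference, read 8.57 and 8.57 in 4OHT, against 9.60 and 9.35 in ethanol. In MigR1 cells its replicates were wide apart, at 9.48 and 8.67 in 4OHT and 9.56 and 8.70 in ethanol. Of the T cell markers, Cd3d, Cd3g and Cd3e had both 4OHT arrays below both ethanol arrays, and Cd3g read 12.37 and 12.16 in 4OHT, against 12.98 and 12.93 in ethanol. Cd2, Thy1 and the dim Cd5 had both above. Over all genes 21.6% had both below and 21.1% both above. Cd2 read 6.19 and 5.94 in 4OHT, against 5.25 and 5.15 in ethanol. The part of these markers and array controls in the results below was not tested.

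With 4OHT in Ik1ER cells, Hes1, Nrarp, Ptcra and Fjx1 were lower, by 0.61 to 0.83 on the log2 scale, which is 1.52-fold to 1.78-fold. None of the 10 genes was called higher, against 2.84% of all genes. The receptors Notch1 and Notch3 and the target Dtx1 read 0.42 to 0.56 lower but were not called, and Hes5, Hey1 and Heyl were not called either. Limma thus called 4 of 10 lower at an adjusted p under 0.05, against 2.51% of all genes called lower in this comparison. The median over the 10 genes was -0.55, against -0.0039 over all genes. In 8 of 10 both 4OHT arrays lay below both ethanol arrays, against 21.6% of all genes, and in none did both lie above, against 21.1% of all genes. As the genes were chosen with earlier results of these arrays known, these counts describe them and test nothing.

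**Figure D1:**
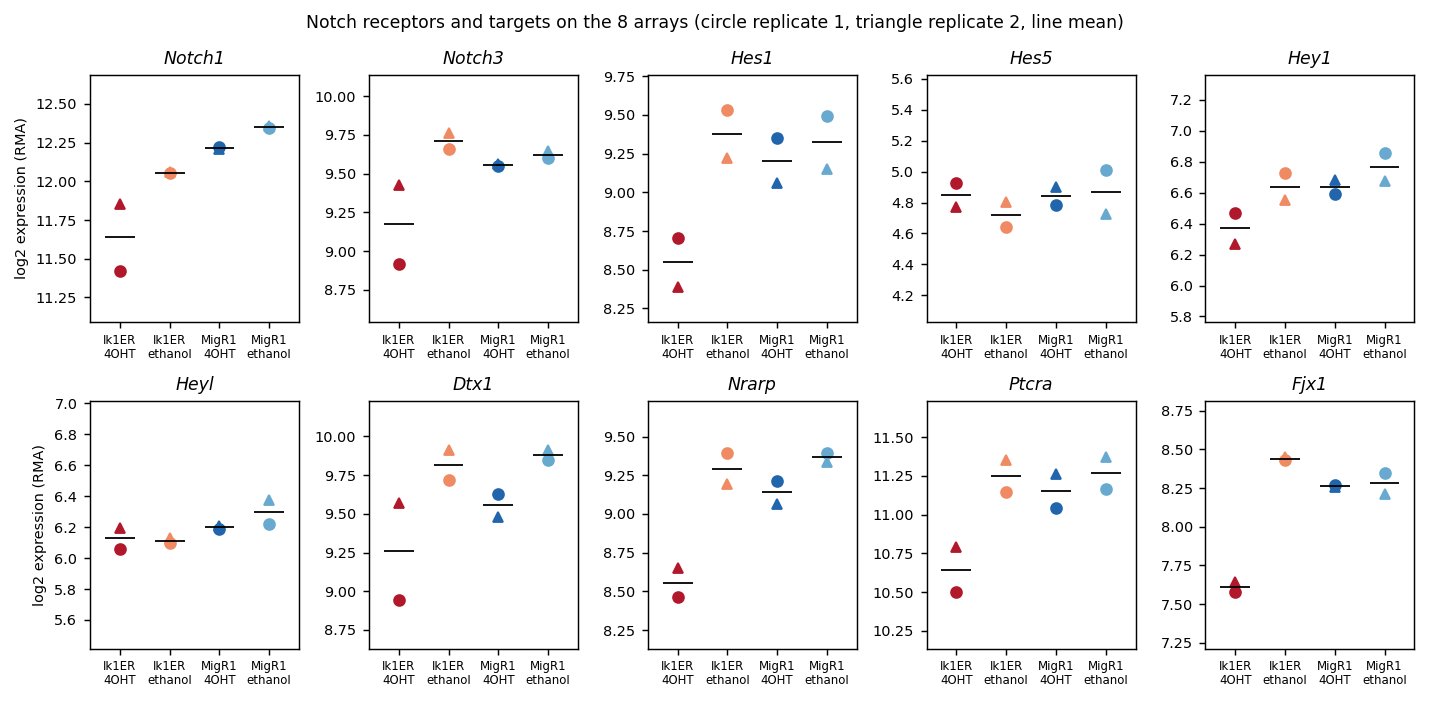
Log2 expression (RMA) of the 10 genes on each array, for Ik1ER cells in 4OHT, Ik1ER cells in ethanol, MigR1 cells in 4OHT and MigR1 cells in ethanol. Circles are replicate 1, triangles replicate 2 and lines group means, and each panel spans the same range of log2 units. Hes1, Nrarp, Ptcra and Fjx1 in Ik1ER cells in 4OHT lie below all other arrays, while the 2 4OHT arrays of Notch1, Notch3 and Dtx1 are wide apart.

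Fjx1, which encodes a Golgi-resident relative of the Drosophila kinase four-jointed, had the change of smallest p among the 10 genes. It read 7.58 and 7.65 in Ik1ER cells in 4OHT, against 8.43 and 8.45 in ethanol. The 2 groups did not overlap and the 2 arrays of each were close. The change was -0.83 (SE 0.0755, 95% interval -1.0 to -0.65, adjusted p = 0.00109). A second Fjx1 probe set gave -0.88 (SE 0.094, adjusted p = 0.00352 over all probe sets), and the third, with a mean of 5.0 that is under the brightest Bacillus control, read -0.054.

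Nrarp, an ankyrin repeat protein that Notch induces and that dampens the Notch transcription complex, read 8.46 and 8.65 in Ik1ER cells in 4OHT, against 9.39 and 9.19 in ethanol. The difference was -0.74 (SE 0.10, 95% interval -0.97 to -0.50, adjusted p = 0.00679). Its other probe set gave 7.80 and 7.71 in 4OHT, against 8.55 and 8.28 in ethanol, and a change of -0.66 (SE 0.11, adjusted p = 0.0229 over all probe sets). On both Nrarp probe sets all 6 other arrays lay above both arrays of Ik1ER cells in 4OHT.

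Hes1, a basic helix-loop-helix repressor and the best known Notch target in thymocytes, read 8.71 and 8.39 in Ik1ER cells in 4OHT, against 9.53 and 9.23 in ethanol. Both 4OHT arrays were lower than both ethanol arrays, although replicate 1 read above replicate 2 in each of the 4 groups. The change was -0.83 (SE 0.17, 95% interval -1.22 to -0.44, adjusted p = 0.0304). Ptcra encodes the invariant chain of the pre-T cell receptor, and read 10.50 and 10.79 in Ik1ER cells in 4OHT, against 11.15 and 11.35 in ethanol. The 2 groups did not overlap, with a change of -0.61 (SE 0.13, 95% interval -0.91 to -0.30, adjusted p = 0.0408). Hes1 and Ptcra have a single probe set each. Nrarp and Fjx1 kept their calls under all 18 alternatives run. Hes1 lost its call without either ethanol array of Ik1ER cells or Ik1ER 4OHT replicate 2, with only the arrays compared, or without both Ik1ER replicate 2 arrays, with an adjusted p of up to 0.1625. Ptcra lost its call without any 1 array other than Ik1ER 4OHT replicate 2, without both Ik1ER replicate 2 arrays, with only the arrays compared, or with each probe set on its own (up to 0.206).

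Promoter sequences show where these genes hold the letters that RBPJ and Ikaros share. They span 250 bases before to 50 after the start site, come from RefSeq (GRCm38.p6), and were found for 6 of the 10 genes: Notch1, Notch3, Hes5, Dtx1, Nrarp and Ptcra. Those of Ptcra and Nrarp are shown since both genes were called lower, and that of Hes5 since it holds the letters in their longer form. Capitals mark TGGGAA or, for the opposite strand, TTCCCA.
Ptcra, chr17:46763663-46763962, minus strand: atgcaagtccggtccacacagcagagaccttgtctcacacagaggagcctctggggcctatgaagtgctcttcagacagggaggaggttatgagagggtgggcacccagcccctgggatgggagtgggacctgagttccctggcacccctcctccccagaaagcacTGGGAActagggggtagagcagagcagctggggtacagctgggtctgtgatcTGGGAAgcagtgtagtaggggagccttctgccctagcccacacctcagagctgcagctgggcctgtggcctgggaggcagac
Nrarp, chr2:25180508-25180807, plus strand: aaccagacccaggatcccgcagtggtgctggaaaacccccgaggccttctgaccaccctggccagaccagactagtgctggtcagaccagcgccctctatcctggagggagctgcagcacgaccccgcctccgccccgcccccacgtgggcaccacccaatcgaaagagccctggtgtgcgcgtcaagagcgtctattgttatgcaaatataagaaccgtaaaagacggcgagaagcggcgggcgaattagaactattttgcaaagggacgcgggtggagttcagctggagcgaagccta
Hes5, chr4:154960673-154960972, plus strand: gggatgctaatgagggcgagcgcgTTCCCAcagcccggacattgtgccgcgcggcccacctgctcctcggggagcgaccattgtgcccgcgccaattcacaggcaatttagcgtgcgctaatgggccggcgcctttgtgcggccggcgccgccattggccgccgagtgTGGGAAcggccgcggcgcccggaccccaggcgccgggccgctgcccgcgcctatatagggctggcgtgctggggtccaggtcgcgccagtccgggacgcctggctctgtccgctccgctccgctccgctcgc
Ptcra held TGGGAA at 2 places, which begin at -84 and -32 from the start site, both on the strand of the gene. It held GGGAA at 3 places, of which 2 lie within those. Hes5 held it once on each strand, at -226 and -82, both times as the longer GTGGGAA. Nrarp held neither TGGGAA nor GGGAA in this window, nor did Notch1, Notch3 and Dtx1. Of the 32851 promoter windows in the table, 25.6% held TGGGAA on either strand and 3.79% held it at 2 or more places. GTGGGAA was held by 6.38% and GGGAA by 62.7%. The letters CACNAG of the N box, which HES proteins bind, occurred in 4 of the 6 windows, those of Notch1, Notch3, Dtx1 and Nrarp, and in 42.5% of all windows. A match is a description of the letters and shows no binding.

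The receptors and Dtx1 had the widest gaps between the 2 arrays of Ik1ER cells in 4OHT. Notch1 read 11.42 and 11.85 in Ik1ER cells in 4OHT, against 12.05 and 12.06 in ethanol. Notch3, a receptor that is itself induced by Notch1 in T cells, read 8.92 and 9.43 in 4OHT, against 9.66 and 9.76 in ethanol. Dtx1, which encodes the ubiquitin ligase Deltex and is a sensitive readout of Notch in thymocytes, read 8.95 and 9.57 in 4OHT, against 9.72 and 9.91 in ethanol. For these genes both 4OHT arrays were below both ethanol arrays, with replicate 1 far below and replicate 2 close. The changes were -0.42 for Notch1 (SE 0.13, 95% interval -0.71 to -0.13, adjusted p = 0.115), -0.54 for Notch3 (SE 0.15, 95% interval -0.88 to -0.20, adjusted p = 0.0865) and -0.56 for Dtx1 (SE 0.18, 95% interval -0.98 to -0.14, adjusted p = 0.143). The second Notch1 probe set read 8.56 and 9.24 in 4OHT, against 9.33 and 9.57 in ethanol, a difference of -0.545. The second Notch3 probe set gave 6.94 and 7.80 in 4OHT, against 7.59 and 8.02 in ethanol, so that its groups overlapped. The second Dtx1 probe set, with a mean of 5.49, gave -0.20 (adjusted p = 0.410 over all probe sets).

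Without Ik1ER 4OHT replicate 2 the changes were -0.63 for Notch1, -0.79 for Notch3 and -0.87 for Dtx1. That fit had 1 array of Ik1ER cells in 4OHT. The gap between the 2 arrays no longer entered the spread, so that its calls rest on the spread of the other groups. Without Ik1ER 4OHT replicate 1 the changes of Notch1, Notch3 and Dtx1 were -0.21, -0.28 and -0.25, with the same limit. Fjx1 and Nrarp moved little between these settings, as they gave -0.86 and -0.83 without replicate 2 and -0.79 and -0.64 without replicate 1. Replicate 2 is the array with the larger transferrin receptor difference (1.91, against 1.16 on replicate 1), with the lower hybridization controls (8.86, against 9.51 on replicate 1) and with the lower reading of the Ikzf1 probe set that marks the construct (10.45, against 11.27 on replicate 1). The part of these measures in these gaps was not tested. Without both replicate 2 arrays of Ik1ER cells, each of their groups had 1 array, and the spread came from MigR1 cells alone.

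**Figure D2:**
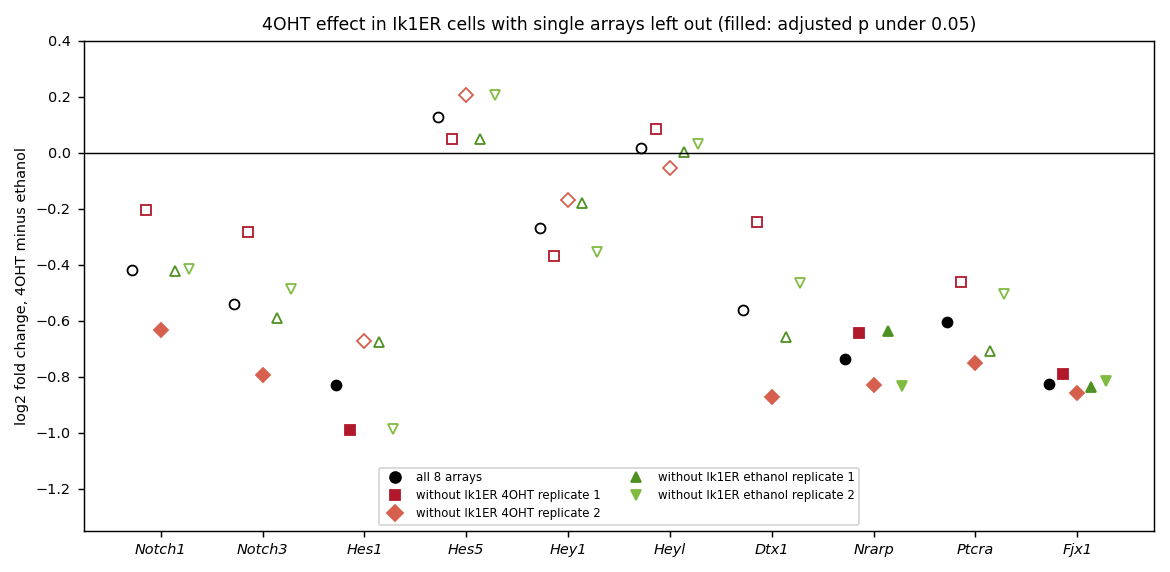
Log2 fold change of 4OHT minus ethanol in Ik1ER cells for the 10 genes, with all 8 arrays and with each Ik1ER array left out in turn. Filled symbols have an adjusted p under 0.05, and those of Notch1, Notch3 and Dtx1 are filled only without Ik1ER 4OHT replicate 2, while Nrarp and Fjx1 are filled in every setting drawn.

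Of the remaining repressors of the Hairy and Enhancer of split class none was called. Hey1 read 6.47 and 6.27 in Ik1ER cells in 4OHT, against 6.73 and 6.55 in ethanol, with a difference of -0.27 (95% interval -0.51 to -0.022, adjusted p = 0.239). Heyl, a close relative of Hey1, had 3 probe sets. The brightest read 6.06 and 6.20 in 4OHT, against 6.10 and 6.13 in ethanol, with a change of 0.016 (95% interval -0.18 to 0.21, adjusted p = 0.954). The other 2 read -0.43 and -0.18 and were not called, and their mean levels of 5.52 and 4.92 lie around the brightest Bacillus control. Hes5, known as a Notch target in neural progenitors and thymocytes, read 4.93 and 4.77 in 4OHT, against 4.64 and 4.80 in ethanol (0.13, 95% interval -0.14 to 0.39, adjusted p = 0.663). Both Hes5 probe sets were under the brightest Bacillus control in all 4 groups (means over the 8 arrays of 4.82 and 3.56), so that a fall of Hes5 could have gone undetected.

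4OHT itself was examined in MigR1 cells, where limma called none of the 10 genes, and 1 of 18193 genes in all (0.0055%). At an unadjusted p under 0.05 there were none of the 10 and 386 of all genes. All 10 differences were below 0, with a median of -0.12 against 0.0069 over all genes. The values ran from -0.017 for Fjx1 to -0.32 for Dtx1 (SE 0.18). Dtx1 read 9.63 and 9.48 in MigR1 cells in 4OHT, against 9.85 and 9.91 in ethanol. Nrarp read 9.22 and 9.06 in 4OHT, against 9.40 and 9.33 in ethanol, with a difference of -0.23 (SE 0.10, 95% interval -0.46 to 0.012, adjusted p = 0.9999). In 5 of the 10, Notch1, Notch3, Heyl, Dtx1 and Nrarp, both 4OHT arrays lay below both ethanol arrays, against 13.1% of all genes, and in none did both lie above, against 16.7%. The lower ends of the 95% intervals ran from -0.19 for Fjx1 to -0.74 for Dtx1, with Hes1 at -0.51, so that effects of these sizes in MigR1 cells were not shown to be absent.

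The difference between the 4OHT effects in Ik1ER and in MigR1 cells was called for 1 of the 10 genes, Fjx1 (-0.81, SE 0.11, 95% interval -1.05 to -0.56, adjusted p = 0.0150), against 1.26% of all genes called in either direction and 0.638% called lower. None of the 10 was called higher, against 0.621% of all genes. Fjx1 read 8.27 and 8.26 in MigR1 cells in 4OHT, against 8.35 and 8.21 in ethanol, so that these arrays overlapped. For Hes1 the difference between the effects was -0.71 (SE 0.24, adjusted p = 0.287), for Nrarp -0.51 (SE 0.15, adjusted p = 0.181) and for Ptcra -0.49 (SE 0.19, adjusted p = 0.371). The 4OHT effect on these 3 targets in Ik1ER cells was thus not shown to differ from that in MigR1 cells. For Notch1, Notch3 and Dtx1 it was -0.28, -0.47 and -0.24 and was not called. The call of Fjx1 was lost without MigR1 4OHT replicate 1 or 2, MigR1 ethanol replicate 2, Ik1ER ethanol replicate 1 or 2, or both Ik1ER replicate 2 arrays, with an adjusted p of up to 0.0799. With the replicate number as a block 2 of the 10 genes were called, as Hes1 joined Fjx1 (adjusted p = 0.0196). Calls over all genes then rose as well, from 229 to 335, and those called lower from 116 to 163.

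**Figure D3:**
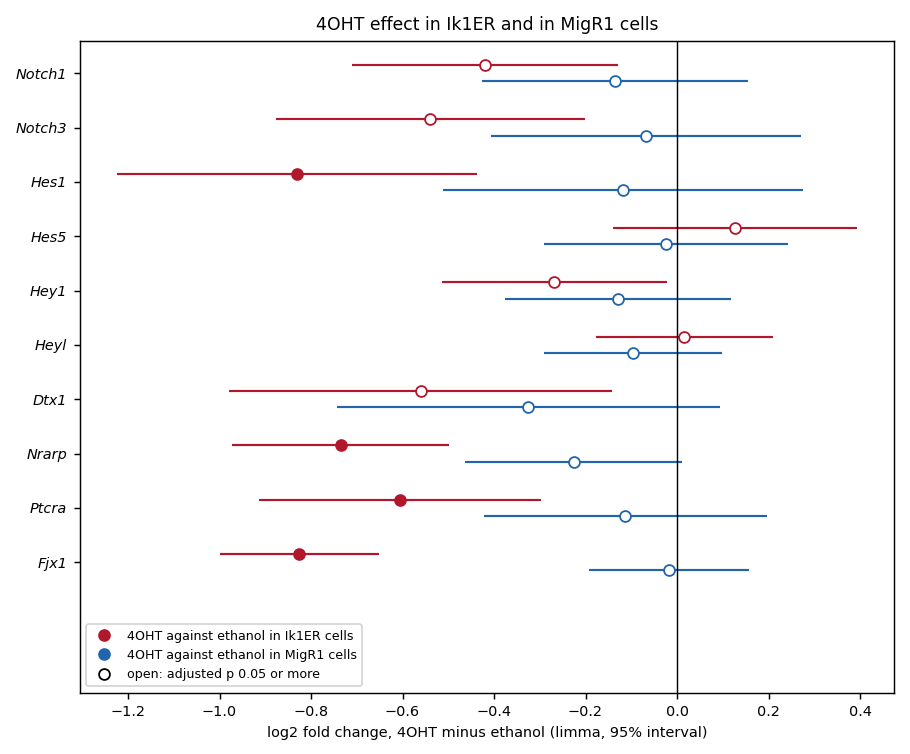
Log2 fold change of 4OHT minus ethanol with its 95% interval from limma, in Ik1ER cells and, below each, in MigR1 cells. Filled points have an adjusted p under 0.05. The Ik1ER values of Hes1, Nrarp, Ptcra and Fjx1 lie between -0.61 and -0.83, and all MigR1 values lie between -0.32 and -0.017.

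The lines were also compared without the inducer. Limma called none of the 10, and 0% of all genes, between Ik1ER and MigR1 cells in ethanol. Ikzf1 entered this count by its probe set of higher mean, not by the one that marks the construct. The latter read 11.17 and 10.60 in Ik1ER cells in ethanol, against 8.12 and 8.14 in MigR1 cells in ethanol. At an unadjusted p under 0.05 there were 1 of the 10, Notch1, and 955 of all genes. Notch1 read 12.05 and 12.06 in Ik1ER cells, against 12.34 and 12.36 in MigR1 cells, a difference of -0.29 (SE 0.13, 95% interval -0.58 to -0.0028, adjusted p = 0.920). Its second probe set gave overlapping arrays, 9.33 and 9.57 in Ik1ER cells against 9.39 and 9.55 in MigR1 cells. Nrarp and Ptcra differed by -0.073 and -0.018, and Hes1 and Fjx1 by 0.055 and 0.16. The 95% intervals reached -0.58 for Notch1, -0.48 for Dtx1 and 0.45 for Hes1. Differences of these sizes were thus not shown to be absent. Both Ik1ER arrays lay below both MigR1 arrays for 2 of the 10, Notch1 and Heyl, against 16.8% of all genes, and above for 2, Notch3 and Fjx1, against 20.7%.

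In 4OHT 3 of the 10 were called lower in Ik1ER than in MigR1 cells, against 2.18% of all genes, and none was called higher, against 2.92% (5.1% in either direction). Both Ik1ER arrays lay below both MigR1 arrays in 7 of the 10, against 22.6% of all genes, and above in none, against 22.1%. This comparison and that of 4OHT with ethanol in Ik1ER cells share the arrays of Ik1ER cells in 4OHT. Fjx1 differed by -0.65 (SE 0.0755, adjusted p = 0.00341) and Nrarp by -0.58 (SE 0.10, adjusted p = 0.0183). Notch1 read 11.42 and 11.85 in Ik1ER cells, against 12.22 and 12.21 in MigR1 cells. Its difference was -0.58 (SE 0.13, 95% interval -0.87 to -0.29, adjusted p = 0.0403). Its second probe set gave -0.54 in 4OHT (SE 0.20, adjusted p = 0.254 over all probe sets) and -0.022 in ethanol, against -0.29 in ethanol on the first. Hes1 (-0.66, adjusted p = 0.0748) and Ptcra (-0.51, adjusted p = 0.0774) were not called, although neither overlapped between the lines. They were called with the replicate block or with the trend and robust settings of limma, and then 5 of the 10 genes were. Calls over all genes rose in these settings too. With the block 464 genes were called lower and with the trend and robust settings 595, against 396 without them. Notch1 lost its call with only the arrays compared, with the mean over probe sets, with each probe set on its own, and when any 1 array other than Ik1ER 4OHT replicate 2 was left out (up to 0.192). With the mean over probe sets limma called Heyl lower (-0.31, adjusted p = 0.0487). Its brightest probe set read -0.071 and the dimmer ones -0.56 and -0.30, none of them called alone. Nrarp lost its call with only the arrays compared, or without Ik1ER 4OHT replicate 1 or either MigR1 4OHT array (up to 0.1265). Without Ik1ER 4OHT replicate 1 only Fjx1 remained called of the 10.

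The levels of each gene over the 4 groups gave the same lowest group for 8 of the 10, which was Ik1ER cells in 4OHT, and Hes5 and Heyl were lowest in Ik1ER cells in ethanol. The share of all genes with that lowest group was not counted, so that this count only describes the 10. Among the other 3 groups, Hes1, Nrarp and Ptcra averaged 9.38, 9.29 and 11.25 in Ik1ER cells in ethanol, against 9.21, 9.14 and 11.15 in MigR1 cells in 4OHT and 9.32, 9.37 and 11.27 in MigR1 cells in ethanol. Those 3 groups of Hes1 and Ptcra overlapped with one another. For Fjx1 Ik1ER cells in ethanol were highest, at 8.44 ± 0.01 (SD, n = 2), above MigR1 cells in 4OHT at 8.26 ± 0.01 and in ethanol at 8.28 ± 0.10. Notch1 followed a different order, with Ik1ER cells in ethanol (12.06) below MigR1 cells in 4OHT (12.21) and in ethanol (12.35).

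The rest of the Notch pathway was read through 63 other genes in 6 lists, of which 57 had a probe set with that symbol alone. With 4OHT in Ik1ER cells 4 were called lower and none higher, against 2.51% and 2.84% of all genes (5.35% in either direction). The other 53 were not called, and the median over the 57 was -0.019. No ligand was called among 5, and the smallest p-values were those of Dll1 (-0.18) and Jag2 (-0.067). The receptors Notch2 and Notch4 changed by 0.17 and -0.41 and were not called, and Notch4 read 5.63 and 5.09 in 4OHT, against 5.94 and 5.60 in ethanol. None of 12 genes of receptor glycosylation and cleavage was called, where Psenen (0.22) and Aph1b (0.30), parts of gamma-secretase, had the smallest p-values. None of 12 genes of the nuclear complex and its corepressors was called either, with the Groucho-type corepressor Tle3 at -0.41 (adjusted p = 0.0627) and the coactivator Maml1 at -0.21. Rbpj itself read 9.06 and 9.33 in 4OHT, against 9.30 and 9.43 in ethanol.

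Of 13 genes of receptor turnover and trafficking 2 were called lower, against 2.51% of all genes, and 11 were not called. Mib1, the ubiquitin ligase that lets ligands signal, read 8.96 and 9.32 in Ik1ER cells in 4OHT, against 9.71 and 9.77 in ethanol (-0.60, SE 0.11, adjusted p = 0.0213). Dtx3l, a Deltex relative, read 9.31 and 9.52 in 4OHT, against 9.91 and 9.95 in ethanol (-0.51, SE 0.086, adjusted p = 0.0135). Of 13 other reported Notch targets 2 were called lower, against the same 2.51% of all genes, and 11 were not called. Myc, which Notch1 activates in T cell leukaemia, read 11.14 and 11.14 in 4OHT, against 11.68 and 11.55 in ethanol (-0.48, SE 0.078, adjusted p = 0.0124). Skp2, the substrate receptor of a ubiquitin ligase that clears cell cycle inhibitors, read 10.63 and 10.46 in 4OHT, against 11.06 and 10.94 in ethanol (-0.45, SE 0.086, adjusted p = 0.0224). Gata3 (0.54) and Igf1r (-0.52) were not called. For none of the 57 was the 4OHT effect called as different between the lines, against 1.26% of all genes. In 4OHT Dtx3l, Myc and Skp2 were called lower in Ik1ER than in MigR1 cells, against 2.18% of all genes. None of the 57 was called higher there, against 2.92%.

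**Figure D4:**
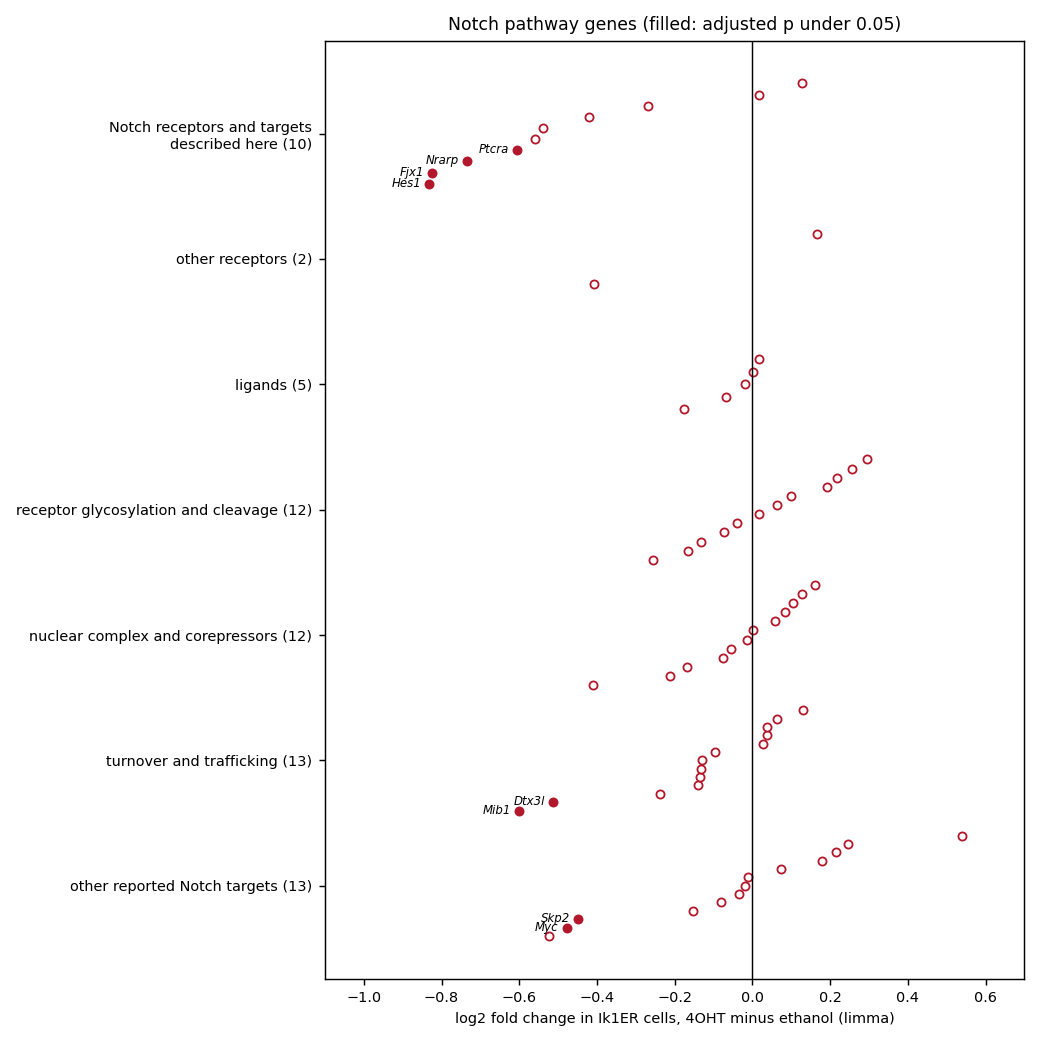
Log2 fold change of 4OHT minus ethanol in Ik1ER cells for the 10 genes and for 57 other genes of the Notch pathway by list, each point a gene, placed by rank within its list. Filled points have an adjusted p under 0.05, and these are Hes1, Fjx1, Nrarp, Ptcra, Mib1, Dtx3l, Myc and Skp2.

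The genes with the most similar course over the 4 groups were sought for Fjx1, Nrarp and Hes1, which had the smallest p-values of the 10. Likeness was the distance between the 4 group means, each gene centred on its own mean, as a description over 8 arrays. It was taken among 10907 genes above the median level, from which the 10 genes described here were left out. Nearest to Fjx1 were Pip4p2 (distance 0.0338 in log2 units), Id1, an inhibitor of helix-loop-helix factors (0.0451), and BC034090 (0.0551). Nearest to Nrarp were Fzd7, a Wnt receptor gene (0.0292), Arsi (0.103) and Tnfsf9, a ligand of the tumour necrosis factor family (0.106). Those of Hes1 were Mt1, a metallothionein gene (0.0583), Tbc1d4 (0.0647) and Anxa4, an annexin gene (0.0649). None of these 9 was on the lists of other Notch pathway genes, and the 10 genes described here could not appear among them. Those lists held 57 measured genes, few beside the 10907 compared, so that their absence says little.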

How the data were processed

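Total RNA of T29 cells was labelled and hybridised to Affymetrix arrays, 1 per sample. The authors deposited log2 expression values, which the submitters' processing notes credit to RMA. Its version and settings are not given in the sources consulted. This method sets arrays to a common distribution, which hides a global shift and compresses dim genes.

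Of 45101 probe sets, 34945 had 1 symbol in the platform annotation, and 34741 of them matched a RefSeq gene by identifier. The probe set of highest mean stood for a gene, with _x_at used only where there was no other, which gave 18193 genes. Group means were fitted to the 8 arrays with lmFit and eBayes of limma 3.58.1 (R 4.3.3, 4 residual degrees of freedom) in 5 contrasts, with p-values adjusted over all genes by the method of Benjamini and Hochberg and calls at an adjusted p under 0.05. The script was tested on simulated data.

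The genes and lists were chosen with earlier results of these data known. The text names the 10 genes, Ikzf1 and Esr1, called genes of each list or otherwise the 2 of smallest p, and the 3 genes nearest to each of 3 members. Rbpj, Gata3 and Igf1r were named after their values were seen. Alternatives were the replicate block, a filter on dim genes, other eBayes settings, repeated quantile normalization, median centring, other choices of probe set, only the arrays compared, and leaving out arrays.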

Additional observations from a re-analysis of the deposited data

Results flagged for a closer look

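The 4OHT effect on Fjx1 differed between Ik1ER and MigR1 cells by -0.81 on the log2 scale (limma, adjusted p = 0.0150), as both Ik1ER arrays in 4OHT read below both in ethanol while the MigR1 arrays overlapped. It is the 1 gene of the 10 for which the test of this difference passed.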

How the results depend on the processing

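In Ik1ER cells, 4OHT changed 973 genes and 4 of the 10 described, or 1342 and 5 with the trend and robust settings of limma. These counts were 412 and 2 with only the arrays compared, 439 to 827 and 2 to 6 with 1 array left out (439 and 440 genes, and 2 members each, without Ik1ER ethanol replicate 1 or 2), and 388 genes without both Ik1ER replicate 2 arrays. In MigR1 cells the 1 call became 0 with the block, dim genes left out, repeated quantile normalization, the mean over probe sets, each probe set on its own, _x_at probe sets included, only the arrays compared or both Ik1ER replicate 2 arrays left out, and 0 to 1 with 1 array left out. The effects differed for 229 genes between the lines, 439 with trend and robust settings, 137 with each probe set on its own, 100 without both replicate 2 arrays and 51 to 269 with 1 array left out. For the 10 genes this count was 2 with the block, 0 without both replicate 2 arrays and 0 to 2 with 1 left out. Over all genes the effects differed for 335 with the block. In ethanol 1 gene was called with the mean over probe sets. Between the lines in 4OHT, 1082 genes were called with the block and 1343 with trend and robust settings. In 4OHT the 928 genes became 429 with only the arrays compared, 594 without both replicate 2 arrays and 242 to 812 with 1 left out. The 3 of the 10 genes became 5 with the block, with trend and robust settings or without both replicate 2 arrays, 1 with only the arrays compared, and 1 to 5 with 1 left out. The cause of these changes was not tested, and leaving out arrays also left fewer of them to fit. A group cut to 1 array added no spread of its own to these fits.

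Signs turned only where no call was made. In Ik1ER cells Heyl read -0.0074 with repeated quantile normalization, -0.20 with the mean over probe sets, -0.038 without both replicate 2 arrays and -0.053 to 0.085 with 1 array left out. In MigR1 cells the mean over probe sets gave 0.039 for Heyl and 0.024 for Fjx1, and leaving out 1 array gave -0.29 to 0.052 for Hes1, -0.17 to 0.12 for Hes5 and -0.084 to 0.05 for Fjx1. For the difference of effects Heyl was -0.24 with the mean over probe sets, and Dtx1 -0.55 to 0.076 with 1 array left out. In ethanol Ptcra was 0.028 with median centring, Dtx1 0.0196 with the mean over probe sets and Nrarp 0.026 without both replicate 2 arrays. With 1 array left out they spanned -0.12 to 0.087, -0.16 to 0.0345 and -0.17 to 0.026, and Hes1 -0.11 to 0.23. In 4OHT Hes5 spanned -0.072 to 0.0845 and Dtx1 -0.61 to 0.014. Of the changes of the 10 genes under the alternatives, 807 kept direction and side of the threshold, 35 lost a call, 18 gained one and 25 changed sign. Hes5 has no value with dim genes left out, and the difference of effects none with only the arrays compared. The labels give no pairing by replicate number. The differences between replicates 1 and 2 correlated over genes at r = 0.45 between the treatments of Ik1ER cells, 0.27 between those of MigR1 cells and -0.069 to 0.10 across the lines. The block raised the genes called for 4OHT in Ik1ER cells to 1151.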
